A study of Mus musculus with 6 samples.

Results

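The cornified envelope genes described here are 10 genes of the epidermal differentiation complex on mouse chromosome 3: Crct1, Ivl, Lor, Sprr1a, Sprr2d, Lce1e, Lce1f, Lce1h, Lce1i and Lce3c. They are 10 of the 19938 genes that could be named on the arrays. They were taken by symbol and selected on earlier measured results of this same genotype contrast, so their differences below are a description and not independent evidence that these genes stand apart. Where a gene has several transcript clusters (the probe groups that the array summarises as 1 value), the brightest over the 6 arrays was to be used, but each of the 10 genes had exactly 1. The 6 arrays came from 3 Rb1+/+ and 3 Rb1L/L cultures of mouse embryonic fibroblasts (MEFs), proliferating at passage 4 and derived from E13.5 embryos. Rb1L is an allele of the retinoblastoma gene whose product, pRb, is altered in the cleft that binds proteins with an LXCXE motif, and both copies carry it in the Rb1L/L cultures. No strain, drug or other allele is named for either genotype, and the comparison asks how expression differed when this pRb function was lost.

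The cornified envelope is the tough protein shell that replaces the plasma membrane of keratinocytes as they die at the skin surface. Transglutaminases cross-link its precursors: involucrin is laid down early beneath the membrane, loricrin makes up much of the mature shell, small proline-rich (SPRR) proteins serve as cross-bridges, and late cornified envelope (LCE) proteins are added near the end. Their genes lie side by side in the epidermal differentiation complex, among S100 genes and genes of S100 fused-type proteins such as hornerin. Fibroblasts form no such envelope, and which cells of the cultures gave these levels was not measured. In a bulk culture, fewer cells of a type and less RNA per cell cannot be told apart.

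Promoter sequences are shown for 7 of the genes. Those that hold an AP-1 motif and a TATA box, as spelled below, are set beside a group of near copies that hold neither spelling. The sequences are RefSeq's, build GRCm38.p6, and run 5′ to 3′ on the strand of the gene, from 250 bases before the start site to 50 bases after it, 300 bases in all. Entries existed for 8 of the 10 genes, and Crct1 and Lce1f had none. Capitals mark the AP-1 motif, spelled TGANTCA, wherever it was found. They also mark a TATA box, spelled TATAAA. Involucrin, loricrin and the pair of Sprr genes come first. Ivl lies at chr3:92573686-92573985 (minus strand), Lor at chr3:92083093-92083392 (minus), Sprr1a at chr3:92485832-92486131 (minus) and Sprr2d at chr3:92338890-92339189 (plus).
Ivl: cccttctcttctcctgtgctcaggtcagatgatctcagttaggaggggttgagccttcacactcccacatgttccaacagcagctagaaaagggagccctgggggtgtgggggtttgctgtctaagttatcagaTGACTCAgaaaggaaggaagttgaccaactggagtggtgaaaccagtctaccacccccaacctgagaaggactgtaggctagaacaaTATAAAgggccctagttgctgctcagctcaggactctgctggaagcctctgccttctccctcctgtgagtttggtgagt
Lor: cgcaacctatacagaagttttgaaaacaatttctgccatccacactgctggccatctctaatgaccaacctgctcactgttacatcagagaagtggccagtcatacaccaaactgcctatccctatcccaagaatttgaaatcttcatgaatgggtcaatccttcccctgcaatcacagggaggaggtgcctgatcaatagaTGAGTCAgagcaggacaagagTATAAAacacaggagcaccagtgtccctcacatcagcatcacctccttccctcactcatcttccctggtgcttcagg
Sprr1a: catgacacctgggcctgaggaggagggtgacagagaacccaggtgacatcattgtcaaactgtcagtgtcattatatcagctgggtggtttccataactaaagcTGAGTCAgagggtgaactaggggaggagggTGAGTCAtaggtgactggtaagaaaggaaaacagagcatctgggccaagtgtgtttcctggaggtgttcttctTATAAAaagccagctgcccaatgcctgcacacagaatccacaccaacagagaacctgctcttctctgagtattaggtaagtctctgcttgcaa
Sprr2d: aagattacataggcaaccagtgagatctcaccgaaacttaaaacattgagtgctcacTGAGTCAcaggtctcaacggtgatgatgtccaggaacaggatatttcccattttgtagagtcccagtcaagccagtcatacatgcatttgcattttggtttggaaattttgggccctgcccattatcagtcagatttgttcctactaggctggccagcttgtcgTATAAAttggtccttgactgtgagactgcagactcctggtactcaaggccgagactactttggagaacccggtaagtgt

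The 3 windows below are those of late envelope genes of the Lce1 group and hold neither spelling. Each holds the letters cagaataaaagga, which a search for exactly TATAAA does not count, so other forms of a TATA box were not tested. Lce1e lies at chr3:92709025-92709324, Lce1h at chr3:92765016-92765315 and Lce1i at chr3:92778850-92779149, all on the minus strand. They are printed because they are near copies of each other. In global alignments 77.7% to 81.7% of their 300 bases were identical, against 41.3% to 49.3% for the other 25 pairs among the 8 windows.
Lce1e: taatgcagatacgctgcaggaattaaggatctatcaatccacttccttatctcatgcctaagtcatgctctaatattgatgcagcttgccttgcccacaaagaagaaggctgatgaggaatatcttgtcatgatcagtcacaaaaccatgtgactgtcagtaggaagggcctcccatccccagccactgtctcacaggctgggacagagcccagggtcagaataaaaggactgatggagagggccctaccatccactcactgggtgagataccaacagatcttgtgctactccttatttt
Lce1h: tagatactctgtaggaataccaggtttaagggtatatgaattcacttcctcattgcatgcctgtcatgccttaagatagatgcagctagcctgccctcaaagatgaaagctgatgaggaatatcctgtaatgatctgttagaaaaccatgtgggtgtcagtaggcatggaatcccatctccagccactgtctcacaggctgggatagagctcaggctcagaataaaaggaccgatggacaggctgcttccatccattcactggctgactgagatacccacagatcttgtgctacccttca
Lce1i: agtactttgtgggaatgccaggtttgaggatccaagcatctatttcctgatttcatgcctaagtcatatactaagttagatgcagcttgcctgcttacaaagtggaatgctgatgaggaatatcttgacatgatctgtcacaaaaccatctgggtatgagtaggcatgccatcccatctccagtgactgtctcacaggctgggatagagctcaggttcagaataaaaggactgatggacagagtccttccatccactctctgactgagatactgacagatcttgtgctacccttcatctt

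AP-1, a dimer of Jun and Fos family proteins, is a known activator of involucrin and other envelope genes in keratinocytes. TGANTCA, searched on both strands, was present in 4 of the 8 windows, those of Ivl, Lor, Sprr1a and Sprr2d, and in 7.81% of all 32851 promoter windows of the same length. It began 116 bases before the start site in Ivl, 48 in Lor, 193 in Sprr2d, and 146 and 116 in Sprr1a, which held 2 copies. TATAAA was present in the same 4 windows, 27 to 43 bases before the start site. It was in 13.6% of all windows, counted at any position and on either strand. TTTNNCGC, the site of the E2F factors that pRb binds, was in none of the 8 windows and in 5.17% of all windows. The motifs do not overlap each other. A match describes letters only, and its absence says nothing about whether a factor acts on the gene.

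Values are the authors' deposited log2 values, made with RMA, which compresses differences of dim genes. Levels of different genes cannot be compared with each other, since each rests on its own probes. Differences are Rb1L/L minus Rb1+/+ on the log2 scale, with the moderated standard error (SE) of limma, and p-values are limma's, adjusted by Benjamini-Hochberg over 15462 genes. Genes entered the test if they averaged more than 5.08 across the 6 arrays, a floor set at the 90th percentile of chemosensory receptor genes (olfactory and vomeronasal), which fibroblasts do not need. The threshold was an adjusted p of 0.05. The labels give 3 cultures a genotype but not the embryo or litter of each, and the p-values measure the spread between these cultures. Arrays with the same number in both genotypes are treated as pairs in an alternative fit, the replicate block, whose values are given where they change a call.

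All 10 genes passed the filter, Lce1f only through its Rb1+/+ level. Of the 10, 7 were lower in Rb1L/L by this test: Crct1, Ivl, Sprr1a, Lce1e, Lce1f, Lce1h and Lce1i. None was higher. Of all tested genes 12.2% were called, 5.08% as lower and 7.1% as higher, and since the 10 genes were picked with this contrast known, nothing is read from their count against those shares. Their median difference was -0.38, beside -0.02 over all tested genes. For 9 of the 10, every Rb1L/L array was below every Rb1+/+ array, which was so for 18.3% of all tested genes. With the replicate block Lce3c was called too, making 8, and 6.45% of all tested genes were then called as lower. Crct1 alone was lower by more than 2-fold, and 3 genes, Crct1, Ivl and Sprr1a, by more than 1.5-fold.

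**Figure D1:**
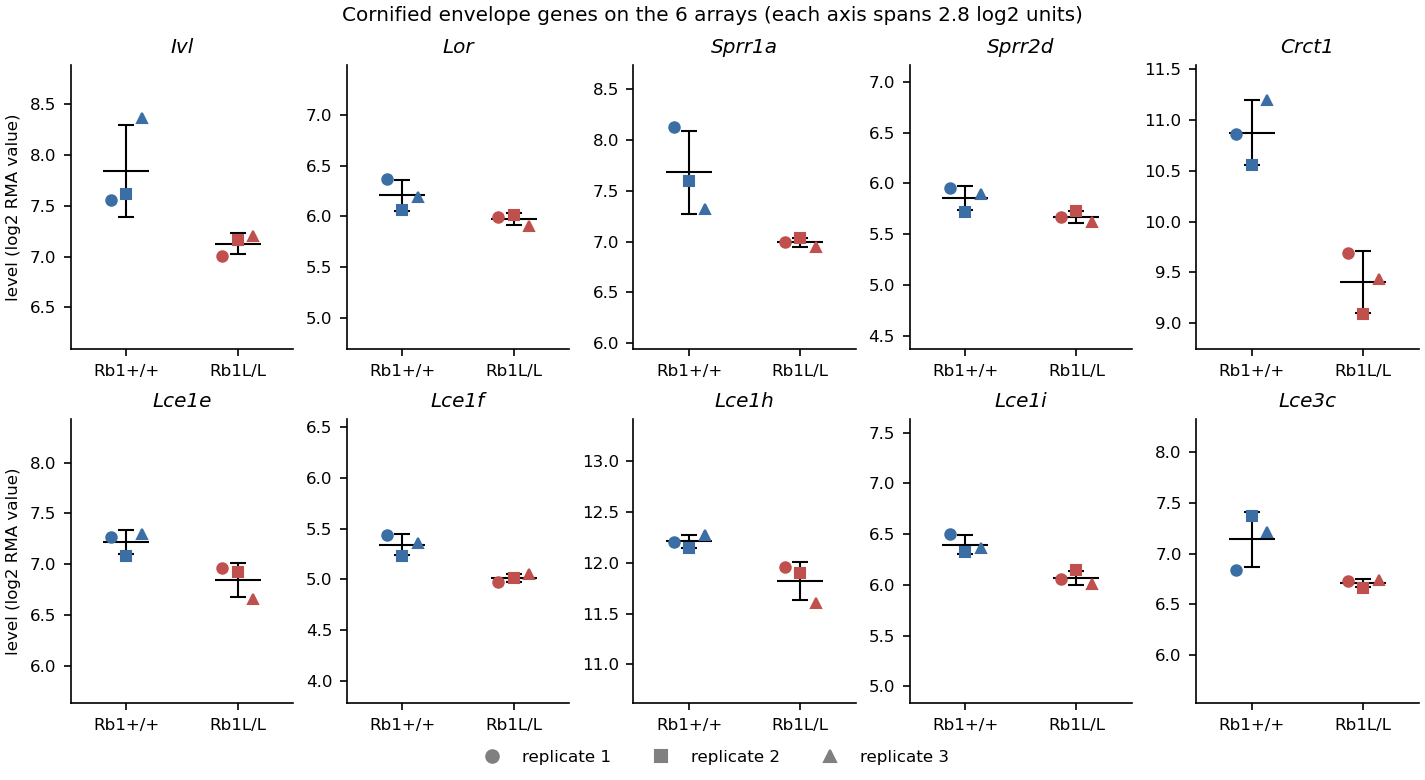
Deposited log2 level (vertical axis, its range set separately for each gene) of the 10 genes in 3 Rb1+/+ and 3 Rb1L/L cultures, with a point per array shaped by its number and a bar at the mean of each genotype. Only Sprr2d has groups that overlap, and the widest separation is that of Crct1, between 10.56 to 11.20 in Rb1+/+ and 9.09 to 9.69 in Rb1L/L.

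Crct1 encodes a small protein with a cysteine-rich end, and its gene lies in the complex beside the Lce genes. Its level was 10.87, 10.56 and 11.20 in Rb1+/+ cultures 1, 2 and 3, and 9.69, 9.09 and 9.43 in Rb1L/L cultures 1, 2 and 3. The groups were well apart, and the culture numbered 2 was the lowest of each genotype. The difference was -1.47 ± 0.18 (SE, n = 3 per genotype), a level 2.77-fold lower, with an adjusted p of 0.00431 in limma. No tested gene was lower by more, and 4 tested genes in all were called as over 2-fold lower. Crct1 was also the sole gene of the 10 called whichever single array was left out, at a highest adjusted p of 0.0237. Without both arrays numbered 1 its adjusted p was 0.0528.

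Ivl encodes involucrin, the early scaffold of the envelope. In the Rb1+/+ cultures it measured 7.55, 7.62 and 8.36, and in the Rb1L/L cultures 7.01, 7.17 and 7.20. Rb1+/+ culture 3 stood above the other two, while the Rb1L/L cultures lay close together (SD 0.10, against 0.45). The difference was -0.72 ± 0.19 (limma, adjusted p = 0.0468, n = 3), or 1.65-fold lower. The call was narrow: with every named gene tested the adjusted p was 0.0525, and without Rb1+/+ culture 3 the difference was -0.46 with an adjusted p of 0.0239. Leaving out any of the other 5 arrays ended the call.

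Lor encodes loricrin, the main bulk protein of the mature envelope. It read 6.36, 6.06 and 6.19 in Rb1+/+ and 5.999, 6.009 and 5.903 in Rb1L/L. The groups did not overlap, but within the cultures numbered 2 the difference was only -0.05. The difference of -0.24 ± 0.08 did not pass the test (limma, adjusted p = 0.101, and 0.0823 with the replicate block), nor did it under any other alternative.

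Sprr1a encodes a cross-bridging protein that is also known for its induction in stressed and injured cells outside the skin. Its level was 8.13, 7.59 and 7.32 in Rb1+/+, and 6.997, 7.039 and 6.947 in Rb1L/L. The Rb1+/+ cultures were spread over a wide range (SD 0.41), with culture 1 the highest, and the Rb1L/L cultures were nearly level (SD 0.05). The difference was -0.69 ± 0.17 (limma, adjusted p = 0.0391, n = 3), 1.61-fold lower. Without Rb1+/+ culture 1 it was -0.46 and still called, and without Rb1+/+ culture 3 it was called too, but leaving out any of the other 4 arrays ended the call.

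Sprr2d encodes another cross-bridging protein. It measured 5.95, 5.72 and 5.90 in Rb1+/+, and 5.67, 5.73 and 5.62 in Rb1L/L. Rb1+/+ culture 2 fell inside the Rb1L/L range, and within the cultures numbered 2 the difference was 0.01 in the other direction. The difference over all arrays, -0.18 ± 0.07, did not pass (limma, adjusted p = 0.146). Several further clusters on the array are annotated with more than 1 Sprr2 gene and so stand for no single one: 3 such clusters, of which 2 hold identical values, were lower by 0.11, 0.10 and 0.10 in the Rb1L/L mean and were not tested.

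Late cornified envelope proteins are small, rich in cysteine and glycine, and joined to the shell late. The genes are close copies, so a cluster named for one may take up transcripts of another, and the values of the 5 Lce genes are uncertain in that respect. Lce1h had a level of 12.21, 12.15 and 12.28 in Rb1+/+ and of 11.96, 11.90 and 11.61 in Rb1L/L. All 3 Rb1L/L cultures were lower, and culture 3 was the lowest. The difference was -0.39 ± 0.09 (limma, adjusted p = 0.0348, n = 3), 1.31-fold lower.

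Lce1e followed the same order of arrays among the Rb1L/L cultures, where it read 6.96, 6.92 and 6.65, against 7.27, 7.08 and 7.29 in Rb1+/+. Its difference of -0.37 ± 0.10 passed narrowly (limma, adjusted p = 0.0428) and did not pass with every named gene tested (0.0502) or with array weights (0.0563). Among the 45 pairs of the 10 genes, Lce1e and Lce1h had the most similar profiles: after centring on each gene's mean, they differed by a root mean square of 0.04 over the 6 arrays. Their promoter windows were 81.3% identical, and whether their clusters take up each other's transcripts was not tested. Lce1h and Lce1i, with windows 81.7% identical and so about equally alike, differed in profile by 0.11.

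Lce1i measured 6.50, 6.33 and 6.36 in Rb1+/+ and 6.06, 6.14 and 6.01 in Rb1L/L. Its groups did not overlap, with a difference of -0.33 ± 0.07 (limma, adjusted p = 0.0222). Lce1f was at 5.44, 5.23 and 5.36 in Rb1+/+ and at 4.97, 5.01 and 5.06 in Rb1L/L. Its difference was also -0.33 ± 0.07 (limma, adjusted p = 0.0214), but its levels were close to the filter. The Rb1L/L mean of 5.01 lay under the filter of 5.08, so Lce1f was tested only through its Rb1+/+ level. Each of Lce1f and Lce1i stayed called in 2 of the 6 fits that left out 1 array, and each of Lce1e and Lce1h in 1.

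Lce3c belongs to the Lce3 group, which in skin is known for its induction on injury. Its level was 6.84, 7.37 and 7.21 in Rb1+/+, and 6.73, 6.66 and 6.73 in Rb1L/L. The groups did not overlap, although Rb1+/+ culture 1 was only 0.11 above Rb1L/L culture 1. The difference of -0.43 ± 0.12 missed the threshold (limma, adjusted p = 0.0555), but Lce3c was called in 5 of 17 alternatives. These were the replicate block (0.0429), median centring (0.0439), trended variances (0.0493), array weights (0.0424) and the fit without Rb1+/+ culture 1 (0.0161). A further cluster annotated with 6 Lce3 genes, Lce3c among them, read 8.30, 8.46 and 8.32 in Rb1+/+ and 8.15, 8.20 and 8.11 in Rb1L/L. It stands for no single gene and was not tested.

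**Figure D2:**
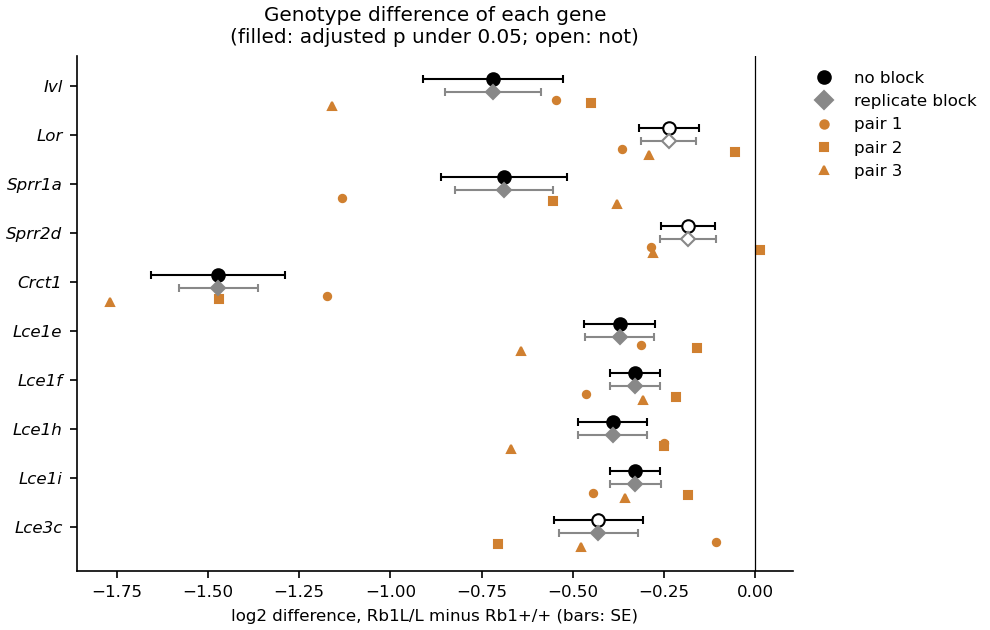
Log2 difference, Rb1L/L minus Rb1+/+ (horizontal axis), of each of the 10 genes, with the moderated SE as a bar and the differences within the arrays numbered 1, 2 and 3 as separate marks, filled where the adjusted p was under 0.05. All differences lie below 0 apart from that of Sprr2d within the arrays numbered 2, and Crct1 stands out at -1.47.

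The 10 genes did not follow 1 shared order of cultures. All 3 same-numbered pairs were lower in Rb1L/L for 9 genes, and the spread was larger in Rb1+/+ than in Rb1L/L for 8. Within Rb1+/+, culture 2 was the lowest for 7 genes and culture 1 the highest for 5, while Crct1, Ivl, Lce1e and Lce1h were highest in culture 3 and Lce3c in culture 2. Within Rb1L/L, culture 3 was the lowest for 6 genes. Besides Lce1e with Lce1h, the closest profiles were those of Lor with Sprr2d (root mean square 0.05) and of Lce1f with Lce1i (0.06).

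Other tested genes, outside the lists used here, were ranked by the same root mean square measure of likeness over the 6 arrays. The measure includes the genotype difference itself. Predicted genes, genes named only by a clone and genes that do not code for protein were left out. Closest to Crct1 were Tnfsf18, a TNF family ligand (root mean square 0.20), Edil3 (0.24), Crabp2, a retinoic acid binding protein (0.36), Hspb8 (0.38) and the tight junction gene Cldn1 (0.40). Closest to Ivl were Lrrc4c (0.11), Stc1 (0.15), Ppef1 (0.17), Igsf11 (0.18) and Tnfrsf21 (0.18). Closest to Sprr1a were Nrep (0.10), Serpinb6b (0.13), Kif21b (0.14), Igfbp5 (0.17) and Calcoco1 (0.18). The nearest profile to Crct1 was thus less close than the nearest to Ivl or Sprr1a, whose differences were smaller.

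For the Lce genes the likeness values were smaller still, as were their differences. Lce1e was nearest to Dusp14, Pou3f4, Egln3, Abtb2 and Il34 (0.05 to 0.06), and Lce1h to Il34, Dusp14, Glt28d2, Dera and Lztfl1 (0.05 to 0.06), so that Dusp14 and Il34 were near both. Lce1f was nearest to Tpd52l1, Rnf14, Gaa, Hadh and Sipa1l3 (0.02 to 0.03). Lce1i was nearest to Creg1, Synrg, Hpgd, Plod1 and Proser3 (0.03). The ranking left out the complex itself, since its genes are in the lists.

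The rest of the complex was counted in the same way. It holds the genes left over once the envelope genes had been picked with this contrast known. Few calls among them may follow from that choice, so nothing is read from their count against that of the envelope genes. Of the 50 other genes of the complex on the array 25 were tested, 1 was lower, 1 was higher, and their median difference was -0.09. Of 14 other Lce genes on the array 8 were below the filter and 6 were tested. In limma none of the 6 was called, with 3 at an unadjusted p under 0.05, and the 6 differences were all below 0 (median -0.22). Of all 15462 tested genes, 4444 were at an unadjusted p under 0.05 in limma and 8719 had differences below 0. The nearest to the threshold were Lce1c (-0.42 ± 0.12, adjusted p = 0.0568) and Lce1j (-0.37 ± 0.11, adjusted p = 0.0583). Both were called as lower with the replicate block, at 0.0405 and 0.0463. Of the other Sprr genes 4 were tested and limma called none, with none at an unadjusted p under 0.05, and Sprr2k (-0.14) and Sprr3 (-0.08) came nearest. Among genes of fused-type and single proteins limma called none of 4, with 1 at an unadjusted p under 0.05. Those nearest were Kprp (-0.27, adjusted p = 0.0775), a keratinocyte proline-rich protein, and Hrnr (-0.16), hornerin.

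The S100 genes encode small calcium-binding proteins and flank the complex. Of 11 tested, S100a7a rose and S100a1 fell. S100a7a, of the psoriasin family, read 7.73, 7.44 and 7.82 in Rb1+/+ and 9.001, 9.219 and 8.682 in Rb1L/L. Its difference of 1.30 ± 0.14 made it 2.47-fold higher (limma, adjusted p = 0.003), opposite in direction to the 10 envelope genes. S100a1 differed by -0.45 ± 0.07 (limma, adjusted p = 0.0108). S100a10 (0.21) and S100a4 (0.24), the next by p, were not called. In the gene order of the reference, 11 genes other than the members were tested from Lor to Crct1, a stretch chosen after the values were seen. Of their differences 10 were below 0, as were 8719 of the 15462 over all tested genes. The 11 include the 6 other tested Lce genes, whose clusters may take up transcripts of the members.

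**Figure D3:**
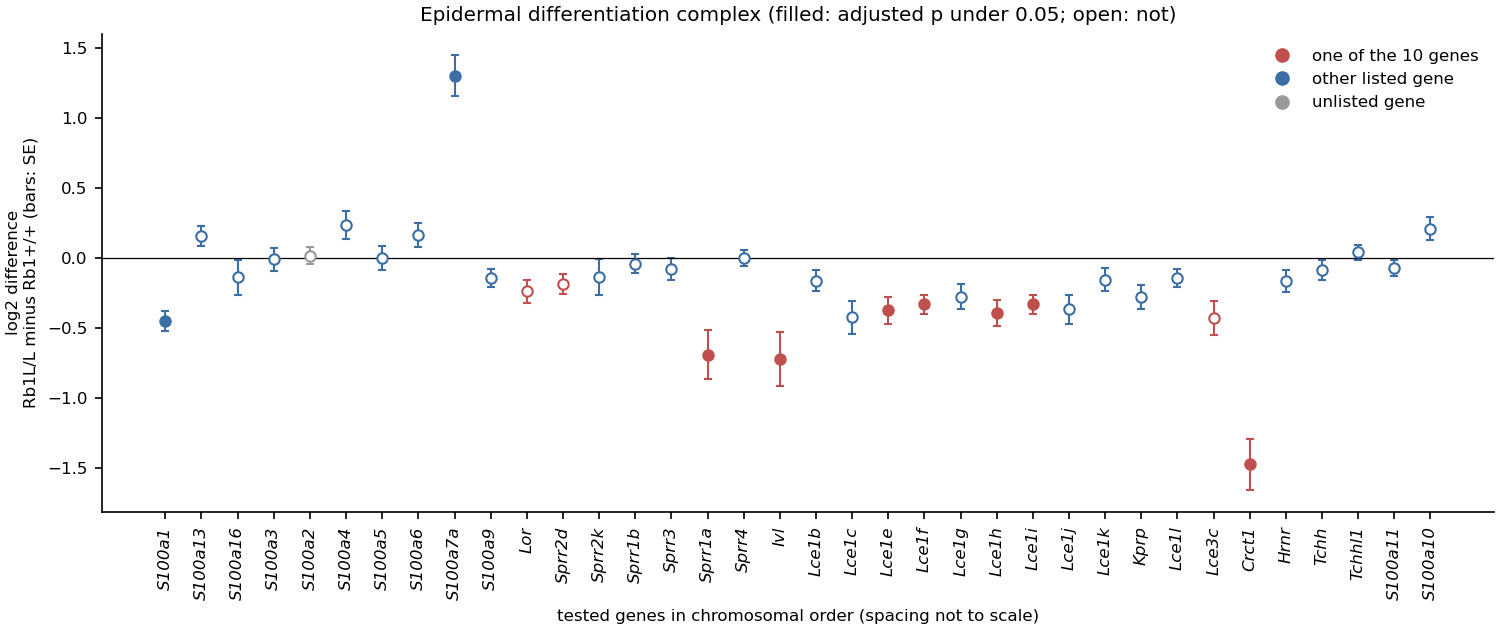
Log2 difference, Rb1L/L minus Rb1+/+ (vertical axis), of the 35 tested genes of the epidermal differentiation complex, and of S100a2 lying among them, in the reference's gene order (horizontal axis, rank only), filled where the adjusted p was under 0.05. The members lie between Lor and Crct1, all below 0, and S100a7a stands highest at 1.30.

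Genes of cornification outside the complex came from 3 lists. Of 12 tested cross-linking and scaffold genes, the transglutaminases among them, limma called none. There were 3 at an unadjusted p under 0.05, as were 4444 of all 15462 tested genes. Sbsn, suprabasin (-0.33, adjusted p = 0.0883), and Tgm5, a transglutaminase (-0.20, adjusted p = 0.0943), came nearest. Of 10 lipid and protease genes 1 fell: Cdsn, which encodes corneodesmosin of the junctions between cornified cells, differed by -0.35 (limma, adjusted p = 0.0283). Aloxe3, an epidermal lipoxygenase (0.24), and Casp14, a caspase of the cornified layer (-0.17), were not called.

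Of 17 transcription factors of the epidermal programme 2 fell and none rose. Tfap2a, encoding AP-2 alpha, differed by -0.55 ± 0.13 (limma, adjusted p = 0.0304), and Zfp750, a factor of terminal epidermal differentiation, by -0.28 (limma, adjusted p = 0.0231). Jun, a subunit of AP-1, was at 0.28 (limma, adjusted p = 0.0723) and Maf at -0.34 (limma, adjusted p = 0.0823). With the replicate block Jun (0.0294) and Prdm1 (0.0295) were called as higher and Maf (0.0279) as lower, giving 2 higher and 3 lower. Over the 3 lists together, 39 of 49 genes on the array were tested and 3 were called, all lower. Their median difference was -0.04.

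Markers were read for the cells that normally make an envelope. Of 19 keratinocyte markers on the array 14 were tested, and limma called none, with none at an unadjusted p under 0.05. The basal keratins had means of 5.48 in Rb1+/+ and 5.50 in Rb1L/L for Krt5 and of 6.29 and 6.33 for Krt14. Itga6 (-0.27) and Perp (-0.23) had the smallest p. Krt2, Krt6a, Krt16, Dsg3 and Dsc3 were below the filter. Krt1, Krt5, Krt17 and Krt15 lay only 0.08, 0.40, 0.58 and 0.78 above it in Rb1+/+, near the dim end where RMA compresses differences. Itga6 and Perp lay 4.67 and 4.37 above it. The number of keratinocytes was not measured. The mean log2 level of all 19 was 6.10 to 6.26 in the Rb1+/+ arrays and 6.15 to 6.21 in the Rb1L/L arrays, with the untested 5 included. The ranges overlapped. Much of the spread in Rb1+/+ came from Sfn: without it, a choice made after its values were seen, the mean of 18 was 6.04 to 6.10 in Rb1+/+ and 5.99 to 6.08 in Rb1L/L.

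Simple epithelium markers overlapped between genotypes in the same way, at 6.25 to 6.35 and 6.29 to 6.33 over 16 genes. Of 11 tested, St14, the protease matriptase, was higher in Rb1L/L (0.47, limma, adjusted p = 0.0182). Krt7, a keratin of simple epithelia (-0.22), and Spint2, a protease inhibitor (0.15), were not called. Epcam, Cldn7, Ocln, Esrp1 and Grhl2 were below the filter. Fibroblast markers were bright on all arrays, and their mean was 10.95 to 11.04 in Rb1+/+ and 10.83 to 10.89 in Rb1L/L, which did not overlap. Of 13 tested, Col3a1 (-0.33, adjusted p = 0.0112) and Lum (-0.39, adjusted p = 0.0347), both of the collagen matrix, were lower in limma, and with the replicate block Dcn (-0.31) was lower too (0.0346, against 0.113). Fn1, fibronectin (-0.14), was not called. The part of this shift in the envelope genes' differences was not tested.

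**Figure D4:**
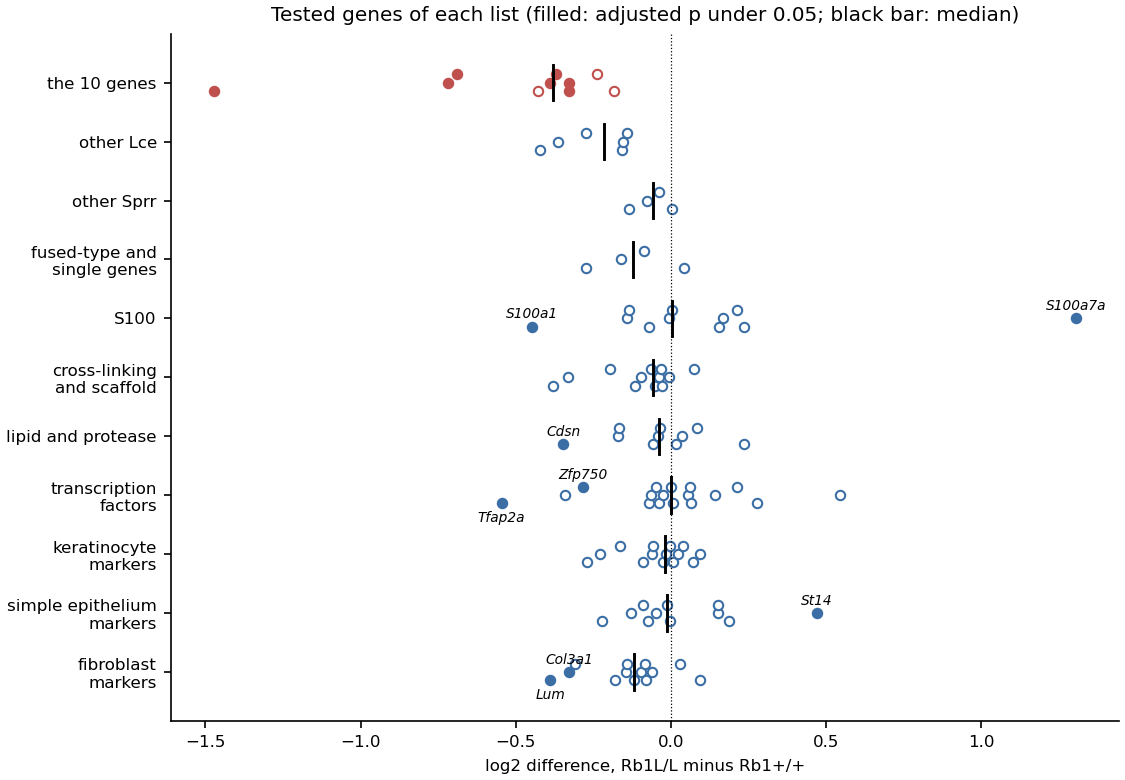
Log2 difference, Rb1L/L minus Rb1+/+ (horizontal axis), of each tested gene, by list, filled where the adjusted p was under 0.05 and with a black bar at the median of the list. The medians are -0.38 for the 10 envelope genes, picked with this contrast known, and -0.22 for the other Lce genes. Those of the remaining lists lie between -0.12 and 0.003.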

How the data were processed

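Total RNA of 6 MEF cultures was hybridised to Affymetrix mouse gene arrays. The authors deposited log2 values per transcript cluster, and RMA and Partek are named per the submitters' processing notes, with versions, settings and the annotation's build not given in the sources used here. Probe signals are normalised between arrays in RMA, so a shift common to most genes would be largely removed. The resulting values lay between 2.28 and 14.16, and the array medians still differed, from 6.393 to 6.449. Arrays have no read depth, and their number limits the precision.

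Clusters with exactly 1 gene symbol in the platform annotation were used, 21789 of 35556, with symbols brought up to date through the reference gene table (GRCm38.p6). For 999 genes with several clusters the brightest was taken. limma 3.58.1 in R 4.3.3 (lmFit, eBayes, no block) was fitted to the 6 arrays. The fit was also run on simulated arrays with independent noise and planted changes of 2-fold higher and 1.5-fold lower. That run did not cover smaller changes or arrays that vary together. The labels do not say whether replicate numbers pair the samples, and the main fit uses no pairing. The design text mentions pairs of MEFs. Once each genotype's mean was removed, arrays sharing a number correlated at 0.30, 0.24 and 0.30 across the tested genes (0.12, 0.20 and 0.26 without X and Y genes). Arrays with different numbers were not compared. Genes were named by rule: every member, and in each other list called genes up to 6 and up to 2 further by smallest p. For each called member, the 5 most alike protein-coding genes outside the lists were also named, without predicted or clone-named genes. The members and all gene lists were chosen with earlier results of these data known. Promoter windows were aligned globally (match 1, mismatch -1, gap opening -5, extension -1). Alternatives covered the block, filter, scaling, clusters per gene, variance trend, array weights and left-out arrays.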

Additional observations from a re-analysis of the deposited data

How the results depend on the processing

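None of the 10 envelope genes changed direction under any of the alternatives run. The 7 calls became 5 with no filter, 6 of 9 tested with the stricter filter, and 7 or 8 with median centring, quantile normalization, all clusters averaged, trended variances, array weights or the replicate block. Leaving out single arrays gave 2 to 4 calls among them, and leaving out both arrays numbered 1, 2 or 3 gave 0 (8 at an unadjusted p under 0.05 in limma), 1 and 2. The same fits called 622 to 1441 tested genes without 1 array, and 92, 467 and 460 without a number, against 1883. Fewer arrays were then fitted. Without both arrays numbered 1, 2 or 3, 3021, 3425 and 3685 of 15462 tested genes were at an unadjusted p under 0.05 in limma. For the other genes of the complex, 2 calls became 4 with the replicate block, with median centring and with trended variances, and 0 without both arrays numbered 1 (5 unadjusted). For the other cornification genes, 3 calls became 6 with the replicate block, 1 to 3 without single arrays, and 0, 0 and 0 without both arrays numbered 1, 2 or 3 (7, 8 and 6 unadjusted). Median centring moved the share of calls that were higher from 58.3% to 45.3%, and no scaling moved the median of all genes by over 0.1. Lce1f, Sprr2d and Lor lie nearest the dim end, where RMA compresses differences most, and with 3 cultures a genotype, 6 of the 7 calls were lost without some single array.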

Other observations

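Sfn, which encodes 14-3-3 sigma of the epidermis and was picked out after its values were seen, varied more by array number than by genotype. It read 7.13, 8.97 and 10.01 in Rb1+/+ cultures 1, 2 and 3 and 7.38, 8.83 and 9.41 in Rb1L/L cultures 1, 2 and 3. Of the 10 envelope genes, Ivl alone ranked its cultures in the same way in both genotypes.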
